A study of Homo sapiens with 17 samples.

Results

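IL11 and 7 further genes of interleukin-6 family signalling were followed in SNU-761 cells, an established liver carcinoma line, after 4 h of treatment. The 8 genes are the ligands IL11 (ENSG00000095752), LIF (ENSG00000128342) and IL6 (ENSG00000136244), the receptors IL6ST (ENSG00000134352), LIFR (ENSG00000113594) and OSMR (ENSG00000145623), the inhibitor SOCS3 (ENSG00000184557) and the transcription factor STAT3 (ENSG00000168610). They are 8 of the 19867 gene rows of the table, and were chosen by their place in 1 pathway and by the low IL11 values with VT107 against DMSO. All values against DMSO are therefore a description, and no p value is printed for IL11 there. Which of the 8 genes passed a threshold there is stated only beside the share of all genes. Counts of calls in contrasts that hold the VT107 effect include IL11 by that choice, so nothing is read from them.

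Cytokines of this family bind a private receptor chain and then the shared chain gp130, the product of IL6ST. Kinases bound to gp130 phosphorylate STAT3, which enters the nucleus and switches on target genes, among them SOCS3, whose product binds gp130 and shuts the signal down. In liver cells the pathway is best known for inducing acute phase proteins. IL11 and IL6 signal through gp130 pairs, LIF joins gp130 to the LIFR chain, and the OSMR chain pairs with gp130 for oncostatin M.

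The RNA was counted by SLAM-seq, in which cells take up thiouridine and reads with T>C conversions mark RNA made while the label was present. The treated groups were VT107 at 0.1 and 2.15 µM, a small molecule that inhibits the TEAD transcription factors, each set against DMSO with 2 libraries per group. The other treated groups were intetumumab at 1.5 and 5 µg/ml, a biosimilar antibody labelled as anti ITGAV and ITGB3, which are integrin chains, with 5 µg/ml of isotype IgG1 as their control and 3 libraries in each group. All cells were of the labelled genotype WT, and 1 further library per experiment is called unlabelled. Whether the replicates were separate cultures is not stated by the labels, and every p measures the spread among these samples alone, which could be technical. Markers of liver cells were not analysed here, since the gene IDs could not be paired with names beyond these 8.

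Labelled libraries held between 435343 and 1778876 counts, and levels are given as counts per 1e6 after TMM scaling (CPM). The 2 experiments were scaled apart, and both doses of an agent share their control libraries. All 8 genes passed the filter on low counts in both experiments. Ranked by mean count among tested genes, IL11 lay at percentile 99.3 (VT107 experiment) and 92.0 (intetumumab experiment), while LIFR lay at 29.1 and 27.5 and IL6 at 35.6 and 22.1. A single read therefore weighs much more in LIFR, OSMR, IL6 and STAT3 than in IL11 or IL6ST. In bulk RNA, fewer cells making a transcript and less of it made per cell cannot be told apart.

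IL11 lies on chromosome 19 (55364382 to 55370463, GRCh38.p14 coordinates from RefSeq), LIF on chromosome 22 (30240453 to 30246759) and IL6 on chromosome 7 (22727200 to 22731998). The promoters of IL11 and IL6 are shown because the values of these 2 ligands went opposite ways with VT107. Each sequence is from RefSeq (GRCh38.p14) and runs 5′ to 3′ on the strand of its gene, from 250 bases before to 50 bases after the start. Capitals mark matches to the 4 motifs searched on both strands: CATTCC for TEAD, TGANTCA for AP-1, GGGA, any 2 bases and then TTCC for NF-kappaB and TTCNNNGAA for STAT.
IL11, chr19:55370414-55370713, minus strand: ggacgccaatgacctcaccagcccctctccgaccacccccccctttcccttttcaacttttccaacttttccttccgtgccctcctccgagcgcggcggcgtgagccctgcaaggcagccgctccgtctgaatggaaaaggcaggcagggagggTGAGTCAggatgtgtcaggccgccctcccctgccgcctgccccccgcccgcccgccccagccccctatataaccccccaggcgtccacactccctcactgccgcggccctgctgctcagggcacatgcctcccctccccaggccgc
IL6, chr7:22726950-22727249, plus strand: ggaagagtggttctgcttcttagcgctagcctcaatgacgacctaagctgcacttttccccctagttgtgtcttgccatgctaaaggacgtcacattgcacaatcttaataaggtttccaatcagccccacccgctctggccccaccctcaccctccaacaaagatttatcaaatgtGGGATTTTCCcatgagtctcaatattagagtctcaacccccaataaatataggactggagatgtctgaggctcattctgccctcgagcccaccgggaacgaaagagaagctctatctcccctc

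The IL11 window held 1 match, the AP-1 letters TGAGTCA beginning at position -96 from the start. Of all 35116 promoter windows of that length, 7.71% held the AP-1 letters. The IL6 window also held 1 match, the NF-kappaB letters beginning at position -73, which 1.61% of windows held. Neither window held the TEAD letters, which occurred in 14.03% of windows, nor the STAT letters, which occurred in 7.66%. Of the other members, LIFR has 3 windows, of which 1 held the TEAD letters and 2 held the STAT letters. Both SOCS3 windows held the TEAD letters, the OSMR window held the AP-1 letters, and the windows of IL6ST and STAT3 held none of the 4 motifs. A match is a description of letters, not of binding. Bases outside these windows were not searched, so a window without a match does not show that a gene lacks a site. RefSeq windows were found for 7 of the 8 genes, the exception being LIF.

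IL11, a cytokine made by epithelial and stromal cells, had the largest change among the 8 genes with VT107. It stood at 503 and 553 CPM in the VT107 2.15 µM libraries and at 617 and 556 CPM in the VT107 0.1 µM libraries, against 1738 and 2467 CPM in the DMSO libraries. The highest treated library lay well under the lowest DMSO library at both doses. The group means were 528 ± 35.6 CPM at 2.15 µM and 587 ± 42.9 CPM at 0.1 µM, against 2102 ± 516 CPM in DMSO (SD, n = 2 each). IL11 thus stood 3.98-fold lower at 2.15 µM (log2 fold change -1.99, SE 0.21) and 3.58-fold lower at 0.1 µM (-1.84, SE 0.21). As a share of all T>C reads, IL11 took 0.0548% ± 0.00370 at 2.15 µM and 0.0590% ± 0.00410 at 0.1 µM, against 0.197% ± 0.0494 in DMSO. Ordered by log2 fold change from the lowest, IL11 was number 66 of 10083 genes at 2.15 µM and number 149 at 0.1 µM.

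The DMSO libraries differed from each other by more than the VT107 libraries did. Without DMSO replicate 2, the higher of the pair, the log2 fold change of IL11 was -1.72 at 2.15 µM and -1.57 at 0.1 µM, and without DMSO replicate 1 it was -2.22 and -2.07. Scaling by total counts moved the median of all genes by 0.16 on the log2 scale at 2.15 µM and by 0.11 at 0.1 µM. A change of scaling moves all genes by nearly the same amount, so values relative to that median were bound to stay nearly fixed. Relative to that median, IL11 was at -2.02 under either scaling at 2.15 µM and at -1.85 under either at 0.1 µM. For that reason these values are no check of the low IL11 values.

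**Figure D1:**
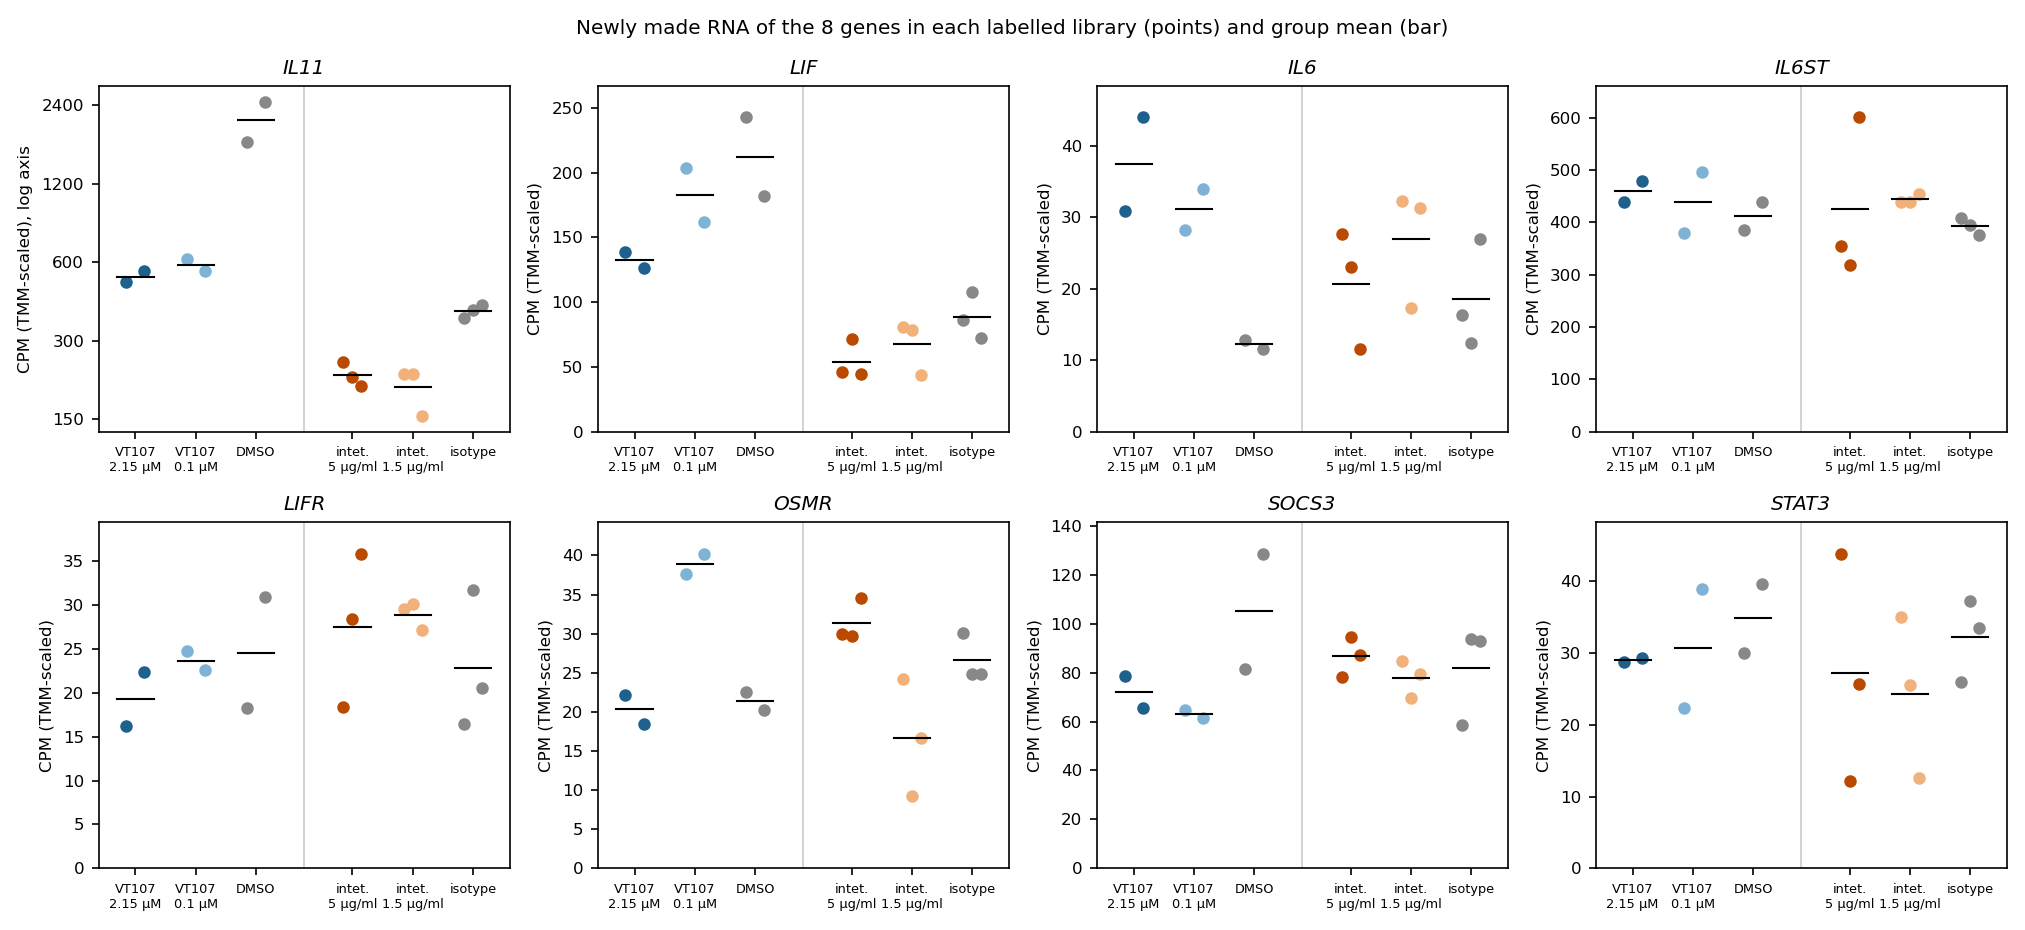
Newly made RNA of the 8 genes in CPM (TMM-scaled) in every labelled library (points) with group means (bars), for the 2 VT107 doses and DMSO left of the line and the 2 intetumumab doses and the isotype right of it, each experiment scaled apart. IL11 is on a log axis and its treated libraries lie below their controls in all 4 treated groups, while IL6 is higher in both VT107 groups than in DMSO.

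IL6, the founding cytokine of the family, had higher values with VT107. Its levels were 30.8 and 44.0 CPM at 2.15 µM and 28.3 and 33.9 CPM at 0.1 µM, against 12.9 and 11.6 CPM in DMSO. The groups did not overlap at either dose, and the counts behind them were 57 and 57 at 2.15 µM and 24 and 27 at 0.1 µM, against 12 and 12 in DMSO. The log2 fold change was 1.60 (SE 0.46) at 2.15 µM and 1.34 (SE 0.47) at 0.1 µM, which is 3.03-fold and 2.53-fold. Its values lay opposite to those of IL11 in all 4 VT107 libraries.

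LIF, which acts through LIFR and gp130, stood at 139 and 126 CPM at 2.15 µM and at 204 and 162 CPM at 0.1 µM, against 243 and 182 CPM in DMSO. The 2.15 µM libraries lay below both DMSO libraries, and the 0.1 µM libraries overlapped them. The log2 fold change was -0.68 (SE 0.26) at 2.15 µM and -0.21 (SE 0.26) at 0.1 µM.

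SOCS3, the feedback inhibitor, stood at 78.5 and 65.6 CPM at 2.15 µM and at 64.8 and 61.6 CPM at 0.1 µM, against 81.6 and 129 CPM in DMSO. All 4 VT107 libraries lay below both DMSO libraries, with DMSO replicate 2 well above the rest. The log2 fold change was -0.54 (SE 0.34) at 2.15 µM and -0.73 (SE 0.35) at 0.1 µM. Without DMSO replicate 2 these values were -0.18 and -0.37, and without DMSO replicate 1 they were -0.83 and -1.03. STAT3, the factor that gp130 activates, averaged 29.0 ± 0.444 CPM at 2.15 µM and 30.7 ± 11.7 CPM at 0.1 µM, against 34.8 ± 6.77 CPM in DMSO (SD, n = 2 each).

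Among the receptors, IL6ST averaged 459 ± 28.0 CPM at 2.15 µM and 438 ± 81.8 CPM at 0.1 µM, against 413 ± 37.1 CPM in DMSO (SD, n = 2 each). Its log2 fold changes were 0.15 (SE 0.21) and 0.087 (SE 0.21), the narrowest error among the receptors. OSMR averaged 20.3 ± 2.60 CPM at 2.15 µM and 38.9 ± 1.77 CPM at 0.1 µM, against 21.4 ± 1.58 CPM in DMSO. The lower dose alone thus stood apart from DMSO, with log2 fold changes of -0.069 (SE 0.42) at 2.15 µM and 0.86 (SE 0.43) at 0.1 µM. LIFR averaged 19.3 ± 4.34 CPM and 23.7 ± 1.50 CPM, against 24.6 ± 8.97 CPM in DMSO.

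At 2.15 µM, IL11 was the 1 of the 8 genes past an adjusted p of 0.05 by edgeR's quasi-likelihood test, where 0.109% of all 10083 genes passed. Nothing is read from that count, since IL11 was picked on this contrast, and it was 0 without replicate 1 or without replicate 2 of the 2.15 µM group. Groups did not overlap for 6 of the 8 genes (2 higher, 4 lower), against 44.7% of all genes. At 0.1 µM, edgeR called 0 of the 8 genes, as 0% of all genes passed, with 2 of the 8 (IL11 and IL6) at an unadjusted p under 0.05, against 12.1% of all genes. Groups did not overlap for 4 of the 8 genes, against 39.7% of all genes. DESeq2 called 1 member, IL11, while the alternatives, DESeq2 among them, called up to 188 genes in all. As at 2.15 µM, nothing is read from these counts or from that call, because IL11 was picked on its low values with VT107. The median log2 fold change of the 8 genes was -0.31 at 2.15 µM and -0.12 at 0.1 µM, beside 0.028 and 0.0089 over all genes.

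The contrast between the VT107 doses holds no DMSO value, but the DMSO libraries shared in the filter, the scaling and the estimate of spread. For IL11 the log2 fold change between 2.15 and 0.1 µM was -0.15 (SE 0.20, 95% interval -0.62 to 0.31, adjusted p = 0.988 by edgeR), and the 2 libraries at 2.15 µM lay below both at 0.1 µM by a few CPM at the nearest. A lower level at 2.15 µM by more than 0.62 on the log2 scale lay outside that interval. With the DMSO libraries left out of the fit, the value for IL11 was -0.15 (SE 0.17, adjusted p = 0.872 by edgeR). In the main fit the value for LIF was -0.46 (SE 0.27, 95% interval -1.07 to 0.14, adjusted p = 0.967 by edgeR). OSMR had the smallest unadjusted p of the 8, and its log2 fold change was -0.93 (SE 0.42, 95% interval -1.89 to 0.029, adjusted p = 0.952 by edgeR). By edgeR 0 of the 8 genes passed, as 0% of all genes did, and 0 had an unadjusted p under 0.05, against 5.3% of all genes. Groups did not overlap for 5 of the 8, against 39.1% of all genes. DESeq2 called 0 members, where no alternative called more than 7 genes in all.

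**Figure D2:**
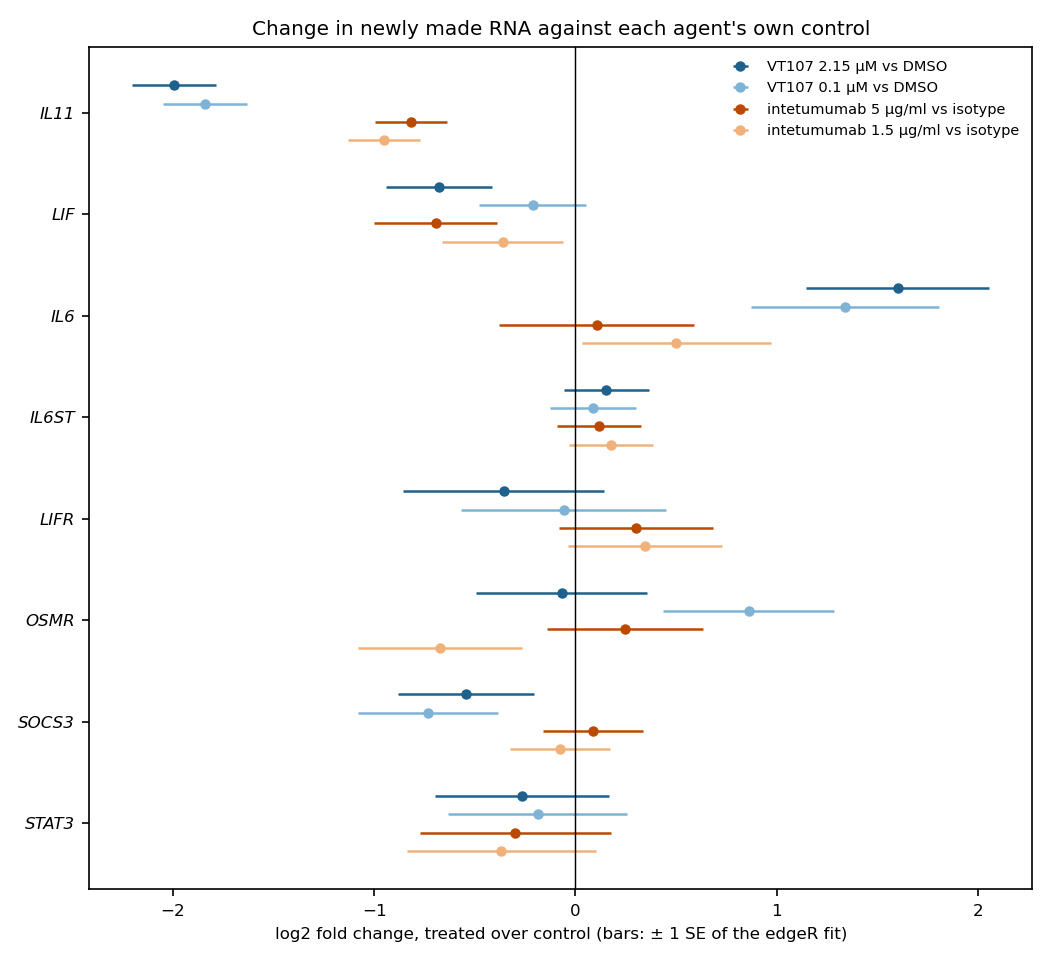
Log2 fold change of each gene over its own control (points) with ± 1 SE derived from the edgeR F statistic (bars), for VT107 2.15 and 0.1 µM against DMSO and intetumumab 5 and 1.5 µg/ml against the isotype. IL11 is at -1.99 and -1.84 with VT107, where its values chose it and are a description, and at -0.82 and -0.95 with intetumumab. IL6 is at 1.60 and 1.34 with VT107 and at 0.11 and 0.50 with intetumumab.

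The rule that chose the genes names no value of the intetumumab experiment, which has its own controls. The members were still chosen with earlier results of these data known, so the p values here may not be independent of that choice. IL11 stood at 249, 218 and 201 CPM at 5 µg/ml and at 223, 224 and 154 CPM at 1.5 µg/ml, against 366, 395 and 410.3 CPM with the isotype. All 6 antibody libraries lay below all 3 isotype libraries. Means were 223 ± 24.2 CPM at 5 µg/ml and 200.4 ± 39.8 CPM at 1.5 µg/ml, against 391 ± 22.3 CPM with the isotype (SD, n = 3 each). The log2 fold change was -0.82 at 5 µg/ml (SE 0.18, 95% interval -1.21 to -0.43), which is 1.76-fold lower, with an unadjusted p of 0.000621 and an adjusted p of 0.156 by edgeR. At 1.5 µg/ml it was -0.95 (SE 0.18, 95% interval -1.34 to -0.56), which is 1.93-fold lower, with an unadjusted p of 0.000170 and an adjusted p of 0.221 by edgeR. The difference did not pass the threshold by edgeR at either dose.

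The call depended on the tool. At each dose DESeq2 alone of the 14 alternatives called IL11, and with the other 13 the adjusted p stayed above the threshold. With DESeq2 the adjusted p of IL11 was 0.00224 at 5 µg/ml and 0.000498 at 1.5 µg/ml, and over the 14 alternatives it ran between 0.00224 and 0.459 at 5 µg/ml and between 0.000498 and 0.804 at 1.5 µg/ml. The log2 fold change itself ran between -0.90 and -0.75 at 5 µg/ml and between -1.04 and -0.81 at 1.5 µg/ml over those alternatives. Ordered from the lowest log2 fold change, IL11 was number 494 of 9024 genes at 5 µg/ml and number 219 at 1.5 µg/ml.

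LIF was at 46.1, 71.7 and 44.8 CPM at 5 µg/ml and at 80.7, 78.8 and 43.8 CPM at 1.5 µg/ml, against 86.1, 108 and 72.3 CPM with the isotype. The 5 µg/ml libraries lay below all isotype libraries, the nearest pair being almost level, and those at 1.5 µg/ml overlapped them. The log2 fold change was -0.69 at 5 µg/ml (SE 0.31, 95% interval -1.36 to -0.028, adjusted p = 0.532 by edgeR) and -0.36 at 1.5 µg/ml (SE 0.30, 95% interval -1.01 to 0.29, adjusted p = 0.969 by edgeR).

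IL6 was at 27.6, 23.0 and 11.5 CPM at 5 µg/ml and at 32.3, 17.4 and 31.3 CPM at 1.5 µg/ml, against 16.4, 12.4 and 26.99 CPM with the isotype. The groups overlapped throughout. Its log2 fold change was 0.11 at 5 µg/ml (SE 0.48, 95% interval -0.95 to 1.16) and 0.50 at 1.5 µg/ml (SE 0.47, 95% interval -0.52 to 1.52). The counts behind these values were only 9 to 25 per library, and the intervals are wide.

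IL6ST averaged 425 ± 153 CPM at 5 µg/ml and 444 ± 9.44 CPM at 1.5 µg/ml, against 393 ± 16.6 CPM with the isotype (SD, n = 3 each), and the wide spread at 5 µg/ml came with 1 library at 601 CPM beside 355 and 319 CPM. SOCS3 averaged 86.7 ± 8.18 CPM at 5 µg/ml and 77.9 ± 7.73 CPM at 1.5 µg/ml, against 81.8 ± 20.0 CPM with the isotype, with log2 fold changes of 0.086 (95% interval -0.45 to 0.62) and -0.077 (95% interval -0.61 to 0.46). Both intervals span 0 and hold changes of SOCS3 in either direction, and a link of SOCS3 to IL11 was not tested. LIFR averaged 27.6 ± 8.74 and 28.9 ± 1.59 CPM at 5 and 1.5 µg/ml, against 22.9 ± 7.95 CPM with the isotype. STAT3 averaged 27.2 ± 15.9 and 24.3 ± 11.3 CPM, against 32.2 ± 5.75 CPM. By edgeR the adjusted p of these 4 genes lay between 0.853 and 0.938 at 5 µg/ml and between 0.985 and 0.997 at 1.5 µg/ml.

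OSMR, which held 8 to 27 counts per library here, averaged 31.4 ± 2.73 CPM at 5 µg/ml and 16.7 ± 7.47 CPM at 1.5 µg/ml, against 26.6 ± 3.02 CPM with the isotype (SD, n = 3 each). Between 5 and 1.5 µg/ml its log2 fold change was 0.92 (SE 0.41, 95% interval 0.035 to 1.80, adjusted p = 0.857 by edgeR), and the groups did not overlap. Its values were thus higher at the lower VT107 dose and lower at the lower antibody dose, and neither difference passed the threshold.

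At 5 µg/ml edgeR called 0 of the 8 genes, where 0.0887% of 9024 genes passed, and 2 of the 8 (IL11 and LIF) had an unadjusted p under 0.05, against 9.23% of all genes. Groups did not overlap for the same 2 genes, against 15.9% of all genes. At 1.5 µg/ml edgeR called 0 of the 8, as 0% of all genes passed, 1 (IL11) had an unadjusted p under 0.05, against 5.47% of all genes, and groups did not overlap for 3 (IL6ST higher, IL11 and OSMR lower), against 12.3%. DESeq2 called 1 member, IL11, at each dose. Over all genes, the alternatives, DESeq2 among them, called up to 92 genes at 5 µg/ml and up to 32 at 1.5 µg/ml. These are the highest counts over the alternatives, and the count of DESeq2 alone is not given here. Nothing is therefore read from the number of members that DESeq2 called. The median log2 fold change of the 8 genes was 0.10 at 5 µg/ml and -0.22 at 1.5 µg/ml, beside 0.0035 and 0.0081 over all genes. Between 5 and 1.5 µg/ml, edgeR called 0 of the 8, where 0.0111% of all genes passed, and 1 (OSMR) had an unadjusted p under 0.05, against 5.64%. Groups did not overlap for 1, against 10.8%. DESeq2 called 0 of the 8, where no alternative called more than 6 genes in all.

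For IL11, the antibody doses differed by 0.13 on the log2 scale (SE 0.18, 95% interval -0.26 to 0.53, adjusted p = 0.969 by edgeR). The 5 and 1.5 µg/ml libraries overlapped, and the sign of the difference turned to -0.011 without replicate 3 of the 1.5 µg/ml group, the library with the lowest IL11 value.

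A ratio of 2 genes within a library is free of the scaling between libraries, so IL11 was also set over IL6ST, the receptor chain that it needs. There were 1.14 and 1.15 IL11 counts per IL6ST count at VT107 2.15 µM and 1.62 and 1.12 at VT107 0.1 µM, against 4.50 and 5.62 in DMSO. With the antibody the 5 µg/ml libraries had ratios of 0.701, 0.682 and 0.335, and the 1.5 µg/ml libraries had 0.509, 0.509 and 0.339, against 0.896, 1 and 1.09 with the isotype. Every treated library had a lower ratio than every one of its controls. The means were 0.573 ± 0.206 at 5 µg/ml and 0.453 ± 0.0980 at 1.5 µg/ml, against 0.996 ± 0.0979 with the isotype (SD, n = 3 each). An exact two-sided permutation test gave p = 0.1 at each dose, and 0.1 is the smallest p that 3 against 3 libraries allow. A ratio shows unequal change of the 2 genes, and the lowest value at 5 µg/ml was in the library whose IL6ST stood at 601 CPM.

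**Figure D3:**
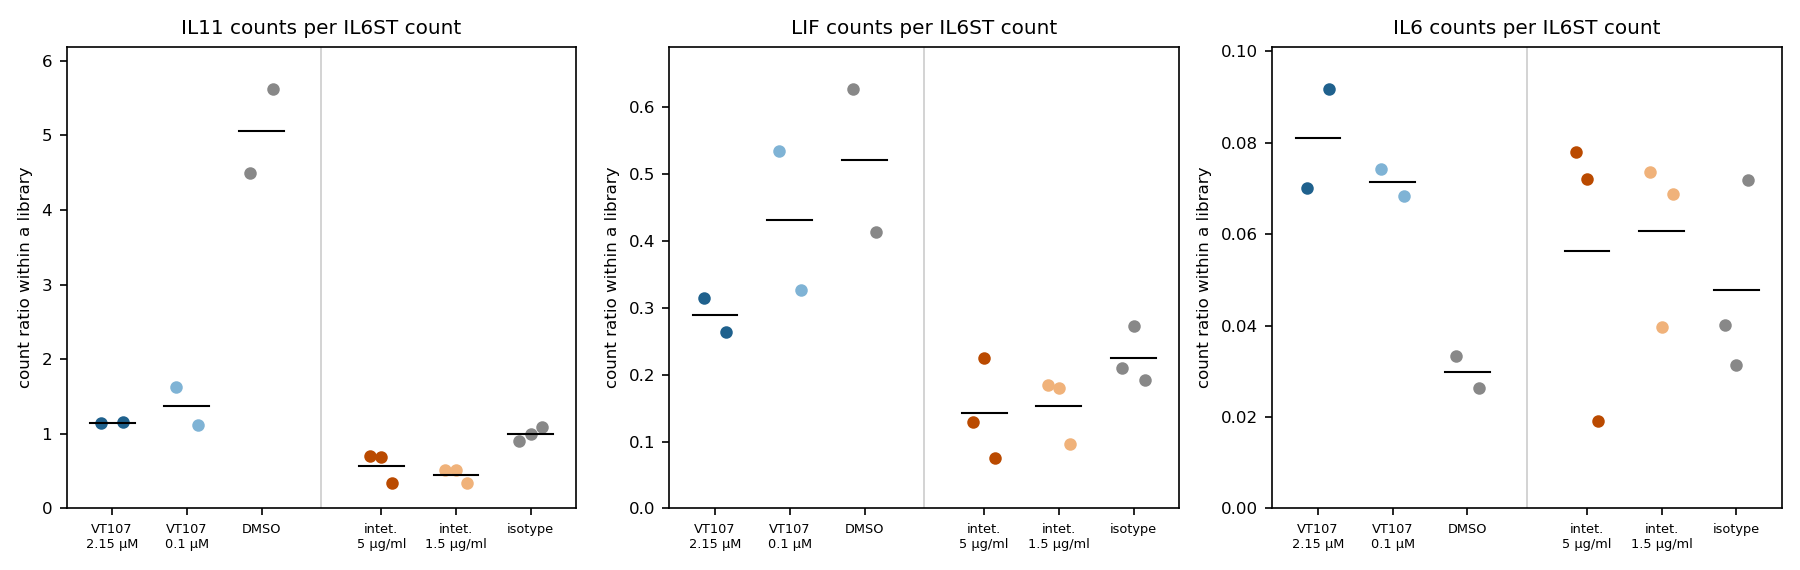
Counts of IL11, LIF and IL6 per IL6ST count within each labelled library (points) with group means (bars), which no scaling between libraries affects. The IL11 ratio is between 1.12 and 1.62 in the 4 VT107 libraries, against 4.50 and 5.62 in DMSO, and it is at most 0.701 in the antibody libraries, against 0.896 to 1.09 with the isotype.

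The 2 control groups themselves stood apart for IL11 and LIF. These groups differ in experiment as well as in agent, which cannot be told apart. IL11 was at 2102 ± 516 CPM in DMSO (n = 2) and 391 ± 22.3 CPM with the isotype (n = 3), and the ratio to IL6ST was 5.06 ± 0.796 and 0.996 ± 0.0979. With scaling done apart, levels can be set across experiments only roughly. LIF was at 212 ± 43.0 CPM in DMSO and 88.7 ± 17.8 CPM with the isotype, while IL6ST was at 413 ± 37.1 and 393 ± 16.6 CPM, LIFR at 24.6 ± 8.97 and 22.9 ± 7.95 CPM and STAT3 at 34.8 ± 6.77 and 32.2 ± 5.75 CPM. IL6 was at 12.2 ± 0.906 CPM in DMSO and 18.6 ± 7.53 CPM with the isotype. In the same order OSMR was at 21.4 ± 1.58 and 26.6 ± 3.02 CPM and SOCS3 at 105 ± 33.2 and 81.8 ± 20.0 CPM. These gaps are values without a test.

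The difference between the effect of VT107 2.15 µM and that of intetumumab 5 µg/ml was fitted in all 15 labelled libraries. For IL11 it was -1.17 (SE 0.26), given as a description because its VT107 value chose it. For IL6 it was 1.50 (SE 0.67, 95% interval 0.071 to 2.93, adjusted p = 0.516 by edgeR), and for LIF 0.018 (SE 0.40, 95% interval -0.84 to 0.87). By edgeR 0 of the 8 genes passed, where 0.0782% of 10227 genes did, and 2 (IL11 and IL6) had an unadjusted p under 0.05, against 9.06%. DESeq2 called 1 member, IL11, while the alternatives, DESeq2 among them, called up to 101 genes in all. Nothing is read from the entries for IL11 in these counts, since the difference holds the VT107 effect that chose it.

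Over the 15 labelled libraries, after each experiment's mean log2 CPM was subtracted, the genes most like IL11 were ENSG00000142949 (Pearson's r = 0.955) and ENSG00000211455 (r = 0.946), out of 8846 genes compared. These points share libraries, depth and scaling, and the DMSO libraries lie far from the rest, so r is a description with no test. Both genes were picked on all 15 libraries, so their values against the controls are a description as well. ENSG00000142949 averaged 779 ± 79.4 CPM at VT107 2.15 µM and 947 ± 98.8 CPM at 0.1 µM, against 2940 ± 689 CPM in DMSO. With intetumumab it averaged 408 ± 45.3 CPM at 5 µg/ml (log2 fold change -1.16, SE 0.17) and 526 ± 119 CPM at 1.5 µg/ml (-0.79, SE 0.17), against 915 ± 54.4 CPM with the isotype. Its mean was thus lower at the higher antibody dose, while that of IL11 was lower at the lower dose, and neither gene's difference between the doses passed the threshold. ENSG00000211455 averaged 42.6 ± 2.47 and 51.7 ± 0.228 CPM, against 110 ± 17.1 CPM in DMSO, and with intetumumab 95.8 ± 11.6 CPM at 5 µg/ml and 79.5 ± 2.69 CPM at 1.5 µg/ml, against 139 ± 21.1 CPM with the isotype. Among the members, SOCS3 (r = 0.578, rank 492) and LIF (r = 0.577, rank 495) were the most like IL11, and IL6 (r = -0.709, rank 8699) was the least. For SOCS3, r with IL11 was 0.845 over the 6 VT107-experiment libraries and -0.0069 over the 9 antibody-experiment libraries. In the same order it was 0.621 and 0.678 for LIF, and -0.958 and -0.294 for IL6.

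Background T>C reads were read off the unlabelled libraries. In the VT107 experiment IL11 had 11 counts there (exact Poisson 95% interval 5.49 to 19.7), which is 0.973% of its labelled mean of 1131 counts, while LIF and SOCS3 had 1 count each and the other 5 genes none. In the intetumumab experiment IL11 and SOCS3 had 1 count each and the other 6 genes none. By the usual limit a count of 0 allows up to 3 counts (the upper bound of the exact two-sided Poisson 95% interval is 3.69), and the 3 counts are 0.607% and 0.994% of the labelled means of IL6ST but 12.2% and 15.7% of those of LIFR. These limits cover counting error only, as do the intervals of single counts.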

How the data were processed

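Per the labels and the series design text, SLAM-seq libraries were made from RNA 3′ ends with a QuantSeq kit, and the authors deposited raw counts per Ensembl gene of newly made RNA, for which SLAM DUNK was used. The submitters' processing notes name the build GRCh38. The version of that software, the gene annotation and how many conversions a read needed were not given in the sources used here.

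Groups were taken from the sample titles and descriptions. Genes were filtered with filterByExpr (minimum count 10), counts were scaled by TMM, and edgeR 4.0.16 (R 4.3.3) gave two-sided quasi-likelihood tests with Benjamini-Hochberg adjustment over all genes of a fit and calls at an adjusted p under 0.05. Each experiment was fitted with all its labelled libraries. The fit was tested before use on simulated data, whose changes were larger than those of IL11 with intetumumab. Smaller changes were not simulated. The common divisor of each member's counts was 1. Alternatives were DESeq2 1.42.0, total count scaling, no filter, other sets of libraries, a replicate block, leaving out each library and division by common divisors.

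The members and lists were chosen with earlier results of these data known. All 8 members are named, and the genes most like IL11 were those with the highest Pearson's r of log2(CPM + 1), at most 2 where only an ID is known. The lists of other pathway genes, TEAD targets and cell type markers were not analysed here, because 0 genes of the name table carry an Ensembl ID. Names of the 8 members are those given with the rule that chose them.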

Additional observations from a re-analysis of the deposited data

Results flagged for a closer look

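IL11 had 11 counts in the unlabelled library of the VT107 experiment, a library that enters no comparison, and this lies above the usual limit of 3 counts for a count of 0 and above 3.69, the upper bound of the exact Poisson 95% interval of a count of 0. Those limits take no account of how many labelled counts a gene has. The 11 counts were 0.973% of the labelled mean of IL11, beside 0.949% for all counts of that library against the mean labelled library. By that measure IL11 was near the library as a whole. No other member had more than 1 count in either unlabelled library.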

How the results depend on the processing

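Of 712 member values recomputed under alternatives, 660 kept their direction and side of the threshold or, against DMSO, moved by less than the replicate spread. The sign turned in 49, of which 12 were against DMSO and 37 in the other comparisons, and 0 of the 49 had an adjusted p under 0.05 by the tool used (edgeR or DESeq2). IL11 was lower than its control in all 50 fits against DMSO or the isotype. Those against DMSO hold the low values that chose IL11, and the fits of each experiment reuse the same libraries. Nothing is therefore read from that count. Leaving out 1 library at a time gave log2 fold changes of IL11 from -2.22 to -1.72 at VT107 2.15 µM and from -2.07 to -1.57 at 0.1 µM, and the number of members called at 2.15 µM ran from 0 to 1. With only the 2 groups compared, 0 members were called at 2.15 µM. At 0.1 µM, 1 member was called without the filter, by DESeq2 and in a fit of all 15 labelled libraries. DESeq2 called 1 member, IL11, at intetumumab 5 µg/ml (log2 fold change -0.82), at 1.5 µg/ml (-0.94) and for the difference between agents, and gave LIF -0.018 for that difference.

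Left-out libraries turned the sign of small values. Against DMSO the ranges were -0.68 to 0.071 for LIFR and -0.21 to 0.054 for OSMR at 2.15 µM. At 0.1 µM they were -0.41 to 0.0080 for LIF, -0.12 to 0.26 for IL6ST, -0.39 to 0.37 for LIFR and -0.64 to 0.15 for STAT3. Total count scaling also turned OSMR at 2.15 µM (0.087) and LIFR at 0.1 µM (0.048). Between VT107 doses the ranges were -0.0028 to 0.50 for IL6, -0.10 to 0.28 for IL6ST and -0.41 to 0.38 for STAT3. At intetumumab 5 µg/ml they were -0.13 to 0.48 for IL6, -0.23 to 0.29 for IL6ST, -0.10 to 0.19 for SOCS3 and -0.76 to 0.070 for STAT3, and at 1.5 µg/ml -0.26 to 0.028 for SOCS3. Between antibody doses they were -0.011 to 0.22 for IL11, -0.40 to 0.12 for IL6ST, -0.28 to 0.15 for LIFR and -0.39 to 0.44 for STAT3. For the difference between agents they were -0.19 to 0.29 for LIF, -0.13 to 0.39 for IL6ST and -0.33 to 0.49 for STAT3. Without both of the shallowest labelled libraries, a choice made after seeing the data, IL6 at 5 µg/ml was -0.12, and between antibody doses IL11 was -0.088, IL6ST 0.077, LIFR 0.11 and STAT3 -0.66. The cause of these turns was not tested.

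Over all genes, calls at VT107 2.15 µM were 11 and ran from 1 to 253 over the alternatives, at 0.1 µM 0 and up to 188, at intetumumab 5 µg/ml 8 and 0 to 92, at 1.5 µg/ml 0 and up to 32, between VT107 doses 0 and up to 7, between antibody doses 1 and 0 to 6, and for the difference between agents 8 and 1 to 101. With the replicate block, IL11 was at -1.98 at VT107 2.15 µM and -0.82 at intetumumab 5 µg/ml, and calls over all genes were 5 and 1. Same-numbered libraries correlated between -0.0157 and 0.0059 (VT107) and between -0.0302 and 0.0438 (intetumumab) in their deviations from group means, and an antibody-experiment library correlated best with its own number in 1 of 9 comparisons with another group, so the numbers were not taken as pairs.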
